A study of Mus musculus with 9 samples.

Results

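Hes1, the Notch target genes Hey1, Hey2, Heyl and Nrarp, the ligand gene Jag1 and the receptor genes Notch1, Notch2 and Notch3 were followed in the RNA of differentiated MC3T3-E1 cells given an organic or an inorganic phosphate. These 9 genes of the 55416 in the count table were found by their symbols. Hes1 was chosen by its readout, a rise with the organic phosphate against both other conditions, so its values are a description and carry no p-value. The other 8 genes were listed for their roles around Hes1 with results of these libraries already known, so their tests are not independent evidence. All 9 are protein-coding genes, and 6 of them (Hes1, Hey1, Jag1, Notch1, Notch2 and Notch3) had enough counts to be tested among 13679 genes. Hey2, Heyl and Nrarp did not.

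MC3T3-E1 is a line of mouse calvarial pre-osteoblasts, of which the study used a single subclone. In all 3 conditions the cells were wild type and had been brought to an osteocyte-like state by an osteogenic medium that held dexamethasone, ascorbic acid and β-glycerophosphate (BGP), the last of which the labels keep in the medium up to the treatment while the study's methods withdraw it earlier. On day 27 the cells received 4 mM BGP, an organic phosphate, or 4 mM NaHPO4, a sodium phosphate buffer that supplies inorganic phosphate, and RNA was taken after 16 h, on day 28. Control cells received neither, but their basal medium holds inorganic phosphate of its own. Each condition had 3 libraries, and no source says that these came from separate cultures, so p-values measure the spread between samples, which may be technical.

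Notch receptors sit in the cell membrane and bind Jagged or Delta-like ligands on neighbouring cells. Binding lets ADAM proteases and then the gamma-secretase complex cut the receptor, and the freed intracellular domain enters the nucleus, where it joins the DNA-binding protein RBPJ and a Mastermind coactivator. Hes1, Hey1, Hey2 and Heyl, which encode basic helix-loop-helix repressors, and Nrarp, a feedback inhibitor, are the textbook targets of this complex. In bone, Notch signalling is known to hold back osteoblast maturation and to act on osteocytes, and Hes1 is also known to answer to signals other than Notch.

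The promoter of Hes1 is shown because Hes1 is the gene chosen by its readout, with the core of the RBPJ site in capitals (TGGGAA). Hes1 lies on the plus strand at chr16:29882134-29886643 (GRCm39). The 300 bases before the start of its canonical transcript, at chr16:29883827-29884126, fall within the annotated span of the gene.

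Hes1: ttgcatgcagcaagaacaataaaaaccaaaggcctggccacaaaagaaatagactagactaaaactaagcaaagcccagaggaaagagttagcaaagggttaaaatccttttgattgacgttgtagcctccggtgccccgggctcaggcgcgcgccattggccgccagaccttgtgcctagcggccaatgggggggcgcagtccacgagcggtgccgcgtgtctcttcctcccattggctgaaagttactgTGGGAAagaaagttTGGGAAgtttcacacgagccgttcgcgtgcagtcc

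These bases hold 2 RBPJ cores on the plus strand, from 49 to 44 and from 35 to 30 bases before the start, and 1 or more cores stood in 26.5% of the 21757 promoters of that length from protein-coding genes, and 2 or more in 4.25%. The Hes1 promoter also held 3 matches to the N box (CACNAG), the kind of site that HES repressors bind and through which HES1 is known to repress its own gene, against 1 or more in 42% of all promoters and 2 or more in 10.6%. It held 1 match to the short form of the cyclic AMP response element (TGACG, in 19.9% of promoters), from 185 to 181 bases before the start, and none to the site of EGR factors (GCGNGGGCG, in 4.71%). All motifs were sought on both strands, and none of the Hes1 matches overlapped another. A match gives the letters only, and binding was not measured here.

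Total counts lay between 21390839 and 28234404 per library, so that 3 counts, taken as the detection floor of a library, equal 0.105 to 0.140 CPM (counts scaled by library size and TMM, per 1000000). All 7 osteoblast markers passed the filter on low counts, and their summed level was 56101 to 61315 CPM in every library. The sum hides opposite shifts. Spp1 had means of 1736, 4839 and 6786 CPM in Control, BGP and NaHPO4. Col1a1, the largest part of the sum, had 43285, 41507 and 37254 CPM, and each of the other markers also had a lower mean in NaHPO4 than in Control. The 6 osteocyte markers summed to 138 to 159 CPM in Control, 600 to 687 in BGP and 386 to 445 in NaHPO4 libraries. Most of that shift was Dmp1, with means of 76.0, 552 and 349 CPM in this order of conditions. The means were 1.20, 8.39 and 1.54 CPM for Fgf23, 34.7, 41.6 and 36.7 for Phex and 30.5, 30.1 and 30.4 for Pdpn. They were 3.45, 3.44 and 3.07 CPM for Mepe and 1.39, 1.21 and 0.427 for Sost. The endothelial markers (Pecam1, Cdh5, Kdr and Tek, 0 of 4 tested) summed to at most 0.187 CPM, the skeletal muscle markers (0 of 3 tested) to at most 0.348 CPM and the leukocyte markers (2 of 4 tested) to 1.52 to 2.48 CPM. The chondrocyte markers, 3 of 4 tested, summed to 248 to 306 CPM in Control, 339 to 446 in BGP and 185 to 264 in NaHPO4 libraries, and the adipocyte markers (1 of 4) to 9.83 to 15.7 CPM over all libraries. Of the smooth muscle or pericyte markers Cspg4 was tested while Myh11 and Rgs5 were not, and the 3 summed to 135 to 145 CPM in Control, 154 to 176 in BGP and 146 to 157 in NaHPO4 libraries. The part of these shifts in the results was not tested, and in bulk RNA fewer cells of a type and less RNA per cell cannot be told apart.

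The cells expressed 3 receptor genes, 1 main canonical ligand gene and, among the member targets, little of any but Hes1. On the scale of CPM per kilobase of exon, averaged over all 9 libraries, Notch2 was highest at 17.4 (15.8 to 18.4 over the libraries), followed by Notch1 at 4.66 (4.20 to 5.12) and Notch3 at 3.58 (3.31 to 3.96). Hes1 came next at 2.21 (1.73 to 3.46), beside Jag1 at 2.17 (1.64 to 2.39), and Hey1 stood at 0.152 (0.0164 to 0.235). The ranges of Notch2 and Notch1, of Notch1 and Notch3, and of Jag1 and Hey1 did not overlap. Those of Notch3 and Hes1, of Hes1 and Jag1, and of each pair of neighbours from Hey1 down did. Nrarp at 0.0156, Heyl at 0.00385 and Hey2 at 0 CPM per kilobase closed the order.

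Set beside the genes around them on the same scale per kilobase, the receptors had the protease Adam10, which makes the first cut, at 27.7 and the related Adam17 at 6.97. Rbpj, the DNA-binding partner, stood at 3.39, and Lfng, a glycosyltransferase that tunes which ligand a receptor answers to, at 18.3. The remaining canonical ligands and the fourth receptor were lower, with Dll1 at 0.247, Jag2 at 0.0954 and Notch4 at 0.0580 CPM per kilobase. Thus Notch2 and Jag1 were the highest receptor and canonical ligand of these libraries by level.

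**Figure D1:**
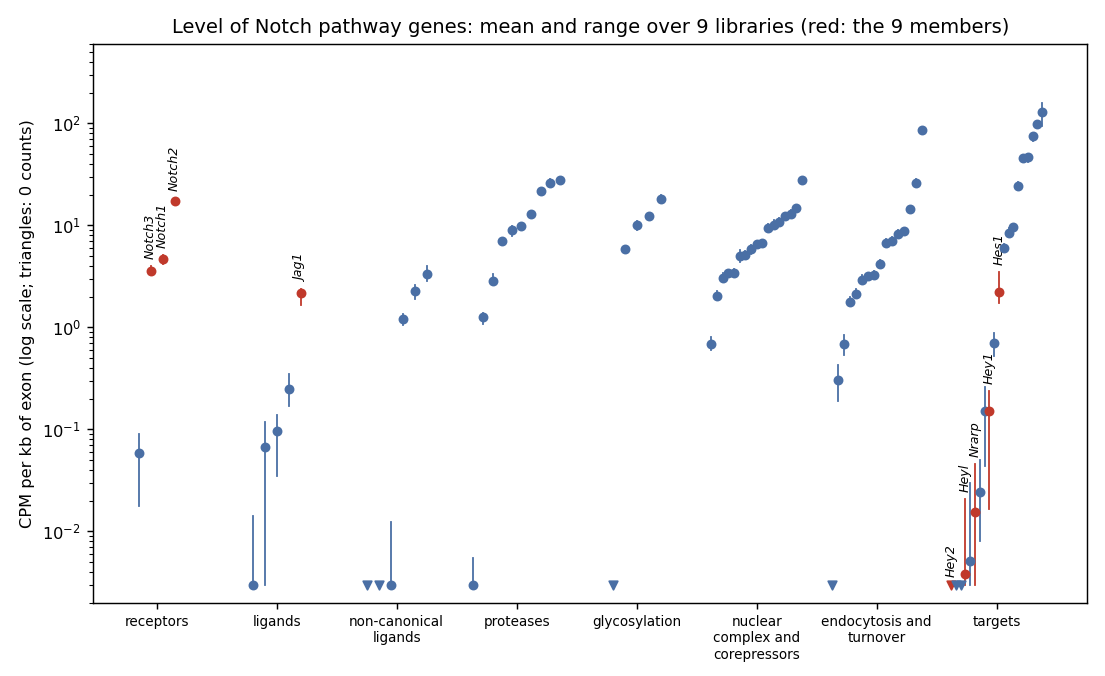
Mean level over the 9 libraries of the Notch genes and their partners in CPM per kilobase of exon (log axis), grouped by role, with the lowest and highest library as bars. Notch2 (17.4) and Jag1 (2.17) are the highest receptor and canonical ligand, and Hes1 (2.21) stands far above the other HES and HEY targets among the members, of which Hey1 is the next at 0.152.

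BGP versus Control asks what added BGP changes, NaHPO4 versus Control what added NaHPO4 changes, and BGP versus NaHPO4 where the 2 treatments differ. The study states that alkaline phosphatase quickly turns BGP in medium into inorganic phosphate. Cells given BGP may therefore have met both forms. The 3 comparisons share libraries, so their values are set side by side without a count of agreement. A gene is called here when its edgeR quasi-likelihood test has a Benjamini-Hochberg adjusted p below 0.05 over all 13679 genes, and log2 fold changes are given with their standard errors.

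With BGP, Hes1 was the only one of the 6 tested members to be called against Control, and it rose, whereas the receptors and Jag1 kept their adjusted p above 0.6. Among all tested genes, 1.86% rose and 0.665% fell in this comparison. With the fold limit of the study (a log2 fold change over 0.5) added, Hes1 was still counted, beside 0.482% of all genes that rose by this rule. Since the choice of Hes1 used this contrast, nothing is read from that count. At an unadjusted p below 0.05, edgeR counted 2 members as higher, Hes1 and Hey1, with no share of all genes taken at that level. Over the 6 members, the chosen Hes1 included, the median log2 fold change was 0.06, against -0.00 over all genes tested.

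With NaHPO4, 0 of the 6 members were called against Control by edgeR, DESeq2 or limma, although DESeq2 gave no adjusted p for Hey1. Of all genes, 3.43% rose and 3.95% fell by edgeR. At an unadjusted p below 0.05, 1 of them (Notch1) was counted by edgeR. Their median log2 fold change was -0.06, against 0.00 over all genes.

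Between BGP and NaHPO4, Hes1 was the only member called, and it was higher with BGP. Hes1 was chosen on this contrast too, so nothing is read from the count. In that comparison 3.33% of all genes were called higher and 2.05% lower with BGP, and 0.38% passed the fold limit as well and were higher. At an unadjusted p below 0.05, edgeR counted 3 members as higher, Hes1, Hey1 and Notch2, with no share of all genes taken at that level. The members, the chosen Hes1 included, had a median log2 fold change of 0.11, against -0.00 over all genes.

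Jag1 (chr2:136923373-136958693, minus strand, 26 exons) encodes Jagged1, the ligand that osteoblast-lineage cells are known to present. Its level was 12.6, 11.9 and 13.5 CPM in the Control libraries, 14.3, 13.1 and 13.1 CPM in the BGP libraries and 13.8, 9.79 and 14.1 CPM in the NaHPO4 libraries. The libraries overlapped in every comparison, and the widest spread was within NaHPO4, where replicate 2 was the lowest of all 9. The group means were 12.7 ± 0.834, 13.5 ± 0.672 and 12.6 ± 2.42 CPM (SD, n = 3 each). The log2 fold change was 0.09 ± 0.106 for BGP versus Control (edgeR adjusted p = 0.798, 95% interval -0.13 to 0.30) and -0.02 ± 0.105 for NaHPO4 versus Control (adjusted p = 0.957, -0.23 to 0.20). Between BGP and NaHPO4 it was 0.10 ± 0.104 (adjusted p = 0.700, -0.11 to 0.31). These intervals leave out a change of Jag1 as large as the fitted 0.70 of Hes1, while smaller changes remain possible.

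Notch1 (chr2:26347915-26406675, minus strand, 34 exons) was measured at 65.4, 72.8 and 67.9 CPM in Control, 69.0, 63.7 and 68.1 CPM in BGP and 63.4, 66.6 and 59.8 CPM in NaHPO4 libraries. All 3 groups overlapped, with means of 68.7 ± 3.78, 66.9 ± 2.84 and 63.3 ± 3.37 CPM. The log2 fold change was -0.04 ± 0.0487 for BGP versus Control (adjusted p = 0.806) and 0.08 ± 0.0484 for BGP versus NaHPO4 (adjusted p = 0.426). For NaHPO4 versus Control it was -0.12 ± 0.0482, with an interval of -0.22 to -0.02 before adjustment and an adjusted p of 0.144 by edgeR.

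Notch2 (chr3:97920800-98057677, plus strand, 34 exons), the receptor whose gain of function is known from Hajdu-Cheney syndrome, a disorder of bone loss, was the most abundant member. It was measured at 196, 195 and 199.8 CPM in Control, 203, 197 and 207 CPM in BGP and 191, 192 and 178 CPM in NaHPO4 libraries. Every NaHPO4 library lay below every Control and every BGP library, while Control and BGP overlapped. The means were 197 ± 2.58, 202 ± 5.22 and 187 ± 7.80 CPM. The log2 fold change was 0.04 ± 0.0360 for BGP versus Control (adjusted p = 0.707), -0.07 ± 0.0358 for NaHPO4 versus Control (adjusted p = 0.261) and 0.11 ± 0.0358 for BGP versus NaHPO4 (interval 0.04 to 0.18, adjusted p = 0.0666 by edgeR). The last of these passed the threshold, at 0.13 with an adjusted p of 0.0492, when NaHPO4 replicate 1 was left out.

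Notch3 (chr17:32339794-32385893, minus strand, 33 exons), which is itself a known target of Notch signalling in mural cells, was measured at 33.1, 31.2 and 35.7 CPM in Control, 33.3, 31.1 and 30.3 CPM in BGP and 32.9, 29.8 and 32.9 CPM in NaHPO4 libraries. The groups overlapped throughout, around means of 33.3 ± 2.24, 31.6 ± 1.56 and 31.9 ± 1.79 CPM. Its log2 fold change was -0.08 ± 0.0627 for BGP versus Control (adjusted p = 0.635), -0.07 ± 0.0613 for NaHPO4 versus Control (adjusted p = 0.611) and -0.01 ± 0.0620 for BGP versus NaHPO4 (adjusted p = 0.957, interval -0.14 to 0.11).

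Among the targets, Hes1 (ENSMUSG00000022528, 4 exons) had raw counts of 125, 155 and 149 in Control, 259, 206 and 209 in BGP and 172, 193 and 150 in NaHPO4 libraries. Scaled for depth, these were 5.84, 6.74 and 5.87 CPM in Control, 11.7, 9.25 and 8.98 CPM in BGP and 6.26, 6.78 and 5.86 CPM in NaHPO4 libraries. The lowest BGP library stood above the highest library of either other condition, BGP replicate 1 was the highest of all, and Control and NaHPO4 overlapped.

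The group means of Hes1 were 6.15 ± 0.513 CPM in Control, 9.97 ± 1.49 CPM in BGP and 6.30 ± 0.460 CPM in NaHPO4. As a description, the fitted level with BGP was 1.62-fold that of Control (log2 fold change 0.70 ± 0.123, interval 0.45 to 0.95) and 1.58-fold that of NaHPO4 (0.66 ± 0.120, interval 0.42 to 0.90). NaHPO4 differed from Control by 0.04 ± 0.128 on the log2 scale, with an interval of -0.22 to 0.30, so that a change of up to 0.30 with inorganic phosphate is compatible with these libraries. Without BGP replicate 1 the log2 fold change against Control was 0.57.

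Hey1 (ENSMUSG00000040289, chr3:8726956-8732385, minus strand, 5 exons), the HES-related target that endothelial and osteoblast-lineage cells are known to use, was close to the limit of detection, with 12, 25 and 2 counts in Control, 25, 25 and 22 in BGP and 16, 13 and 15 in NaHPO4 libraries. Its level was 0.561, 1.09 and 0.0787 CPM in Control, 1.13, 1.12 and 0.946 CPM in BGP and 0.582, 0.456 and 0.586 CPM in NaHPO4 libraries. Every BGP library exceeded every NaHPO4 library, but Control replicate 2 lay within the BGP range and Control replicate 3 was below the floor of 3 counts.

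The mean of Hey1 was 0.576 ± 0.505 CPM in Control, 1.07 ± 0.104 CPM in BGP and 0.541 ± 0.0737 CPM in NaHPO4. Its log2 fold change was 0.91 ± 0.440 for BGP versus Control (edgeR adjusted p = 0.361, interval 0.02 to 1.80), which became 0.36 without Control replicate 3 and 1.79 without Control replicate 2. For NaHPO4 versus Control it was -0.06 ± 0.476 (adjusted p = 0.963, interval -1.03 to 0.90), and for BGP versus NaHPO4 it was 0.97 ± 0.430 (adjusted p = 0.228, interval 0.10 to 1.84). The point estimates of Hey1 with BGP were as large as those of Hes1, yet their standard errors were more than 3 times wider. No difference was called. Counts were low and the Control libraries spread widely, and the share of each in these errors was not tested.

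Hey2 (chr10:30708350-30718828, minus strand), known from heart and vessels, had 0 counts in all 9 libraries, of 219084882 counts in all. Heyl (chr4:123127349-123143682, plus strand), known from vascular smooth muscle and skeletal muscle, had 5 counts, in the 3 NaHPO4 libraries (3, 1 and 1), and 0 in every Control and BGP library, so that no library exceeded the floor. Nrarp (chr2:25070770-25073351, plus strand, 1 exon), whose protein binds the Notch intracellular domain and limits it, had 9 counts in 5 libraries of all 3 conditions, with at most 3 in any. At this depth no difference in Heyl or Nrarp could be detected, and no fold change is given for them.

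Some members share sequence with overlapping genes, and how reads were assigned between them, or whether strand was used, is not given. The overlap of Notch2 with Gm42820 is on the same strand, and the other overlapping genes lie on the opposite strand. In a later annotation of GRCm39, 82.6% of the windows of 50 bases in Nrarp transcripts also occurred in Gm13387 or Gm38287, which overlap it on the opposite strand. The share was 12.8% for Notch1, 6.83% for Notch3, 3.59% for Notch2, 3.58% for Hey1, 0.721% for Hes1 and 0.38% for Jag1. It was 0 for Hey2 and Heyl.

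**Figure D2:**
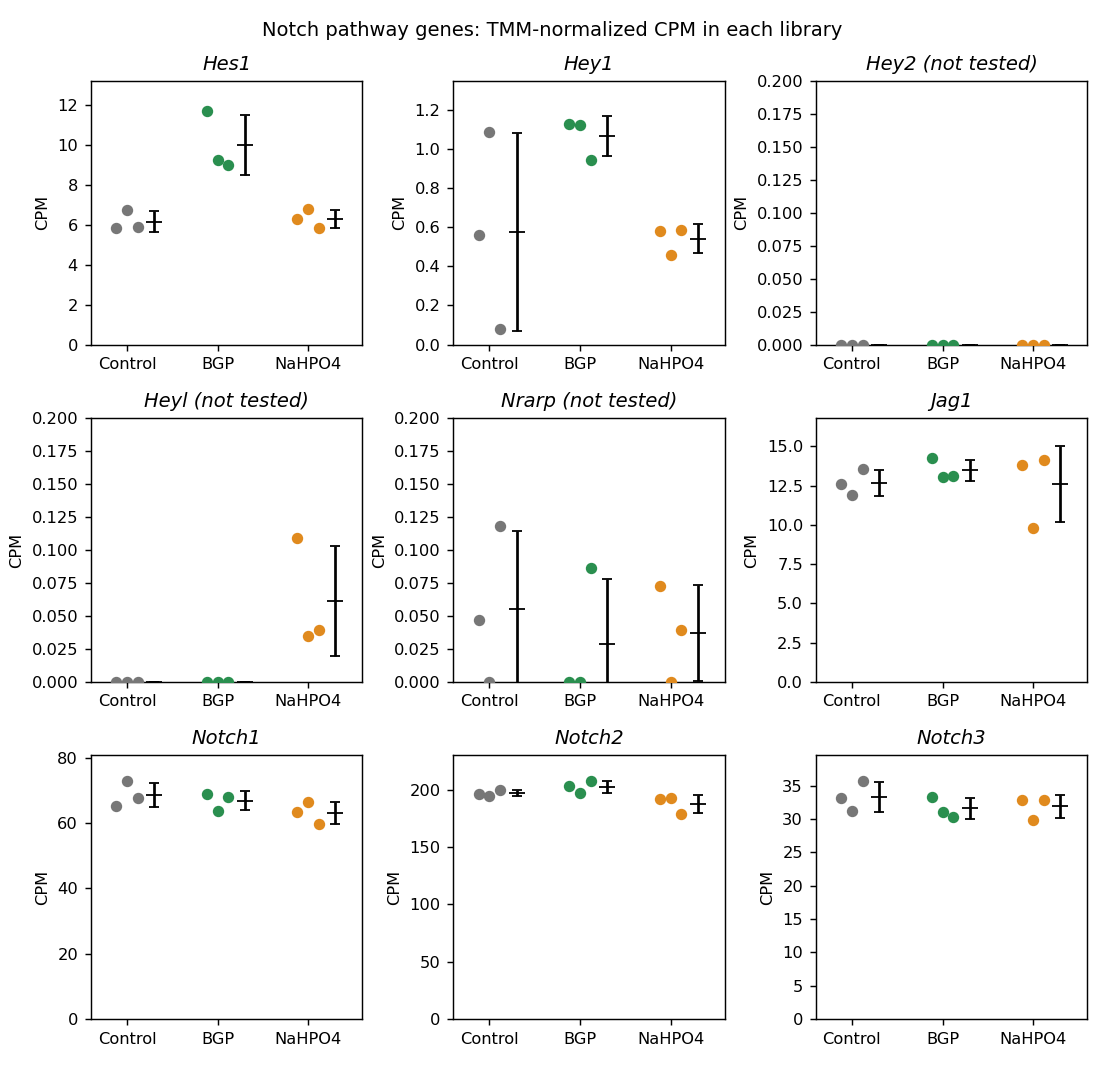
Level of the 9 members in CPM in each of the 9 libraries, a panel per gene with its own axis; points are libraries and lines with bars are the mean and SD of 3. The 3 BGP libraries of Hes1 (8.98 to 11.7 CPM) sit above all Control and NaHPO4 libraries, the 3 NaHPO4 libraries of Notch2 (178 to 192 CPM) sit below all others, and Hey2 is at 0 throughout.

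By the separation of libraries alone, Hes1 was the only tested member whose BGP and Control libraries did not overlap, in a comparison in which 18.5% of all tested genes did not. Notch2 was the only such member for NaHPO4 versus Control, against 23.2% of all genes. For BGP versus NaHPO4 the libraries of 3 of the 6 members (Hes1, Hey1 and Notch2) did not overlap, against 21.2%. Hes1 was chosen on both comparisons with BGP, so nothing is read from its part in these counts. With 3 libraries against 3, an exact two-sided permutation test of a single gene cannot fall below p = 0.1.

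**Figure D3:**
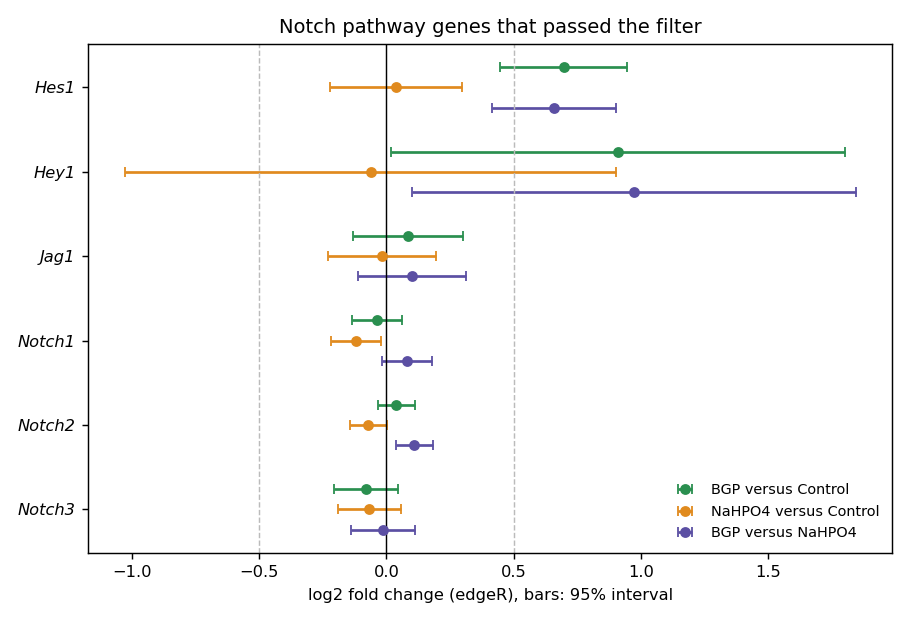
Log2 fold change of the 6 tested members in the 3 comparisons, with 95% intervals from the edgeR fit. Hes1 was chosen on both comparisons with BGP, so its intervals there (0.45 to 0.95 and 0.42 to 0.90) are a description. Those of the receptors and Jag1 are narrow and close to 0, and those of Hey1 are the widest.

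The rest of the pathway was read from a list of 73 further genes, of which 61 were tested. In BGP versus Control, 1 was called higher (Acta2) and 1 lower (Dtx4), where 1.86% of all tested genes were called higher and 0.665% lower. In NaHPO4 versus Control, 1 rose (Mib1) and 3 fell (Acta2, Mfap5 and Tle3), against 3.43% and 3.95% of all genes. In BGP versus NaHPO4, 3 were higher with BGP (Acta2, Cdkn1a and Tle3) and 0 lower by edgeR, where 2 were lower at an unadjusted p below 0.05, DESeq2 called 0 lower and limma called 1. Among all genes 3.33% were higher and 2.05% lower. Acta2 in the last comparison was the only call past the fold limit of 0.5.

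The median absolute log2 fold change of these 61 genes was 0.0384, 0.0719 and 0.0677 in the 3 comparisons, against 0.0709, 0.0814 and 0.0758 over all tested genes. Single libraries moved these counts. For BGP versus Control the count of 2 became 1 without Control replicate 1 or 2 or BGP replicate 1 or 2, and 0 without Control replicate 3 or BGP replicate 3. For NaHPO4 versus Control the count of 4 became 2 without Control replicate 1, Control replicate 3 or NaHPO4 replicate 1, and for BGP versus NaHPO4 the count of 3 became 5 without NaHPO4 replicate 3.

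The remaining receptor and canonical ligands gave 0 calls by edgeR, DESeq2 or limma, and 0 at an unadjusted p below 0.05. Notch4, mainly an endothelial receptor, had means of 0.659, 0.474 and 0.407 CPM in Control, BGP and NaHPO4. Of 4 further canonical ligands, Dll1 (1.19, 1.40 and 1.08 CPM) and Jag2 (0.599, 0.840 and 0.592 CPM) were tested and not called, whereas Dll3 had 1 count and Dll4 56 counts in the 9 libraries together. Of 6 non-canonical ligands 3 were tested, Dlk2 at a mean of 6.50 CPM among them. Mfap5, a microfibril protein that is reported to bind Notch1, was 25.7 ± 2.61 CPM in Control, 23.1 CPM in BGP and 20.6 ± 1.70 CPM in NaHPO4, and fell by 0.31 ± 0.0873 on the log2 scale with NaHPO4 (edgeR adjusted p = 0.0212). That call was lost without Control replicate 1 or 2 or NaHPO4 replicate 1 or 3.

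The machinery that cuts and modifies the receptors was expressed in every condition. Of 10 protease genes 9 were tested and 0 were called in any comparison by edgeR, DESeq2 or limma, with 1 in each comparison at an unadjusted p below 0.05. Furin, which cleaves the receptor on its way to the surface, had 266, 270 and 262 CPM in Control, BGP and NaHPO4, and Adam10 had 151, 155 and 156 CPM. Of 5 glycosylation genes 4 were tested and 0 were called by the same tools, with 1 at an unadjusted p below 0.05, in NaHPO4 versus Control. Poglut1 and Pofut1, which add O-linked glucose and fucose, had the highest CPM, at 83.2 and 61.0 over all libraries. Per kilobase of exon, Lfng (18.3) stood above Poglut1 (12.3) and Pofut1 (5.90).

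All 17 genes of the nuclear complex and its corepressors were tested. By CPM, without correction for gene length, Ctbp1 (239 CPM) and Kdm5a (145 CPM) were the highest. Rbpj (42.0, 43.2 and 45.6 CPM) and the coactivator Maml1 (78.9, 80.9 and 77.6 CPM) were not called. Tle3, a Groucho-family corepressor through which HES proteins are known to act, was called. It was 72.6 ± 4.50 CPM in Control, 74.5 ± 2.10 in BGP and 65.1 ± 1.99 in NaHPO4 libraries. It fell by 0.16 ± 0.0458 on the log2 scale with NaHPO4 (adjusted p = 0.0240), and its level in BGP exceeded that in NaHPO4 by 0.20 ± 0.0459 (adjusted p = 0.00584). The fall was no longer called by limma, with total counts in place of TMM, or without Control replicate 3 or NaHPO4 replicate 2 or 3, whereas the difference between the phosphates was called under all 17 alternatives.

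Of 16 genes of endocytosis and turnover, 15 were tested. The ubiquitin ligase Nedd4 (1286 CPM) and the kinase Aak1 (316 CPM) were the highest by CPM, without correction for gene length. Mib1, the ubiquitin ligase that drives endocytosis of ligands, was 106 ± 3.55 CPM in Control, 113 ± 0.960 CPM in BGP and 117 ± 6.06 CPM in NaHPO4 libraries. Its log2 fold change was 0.14 ± 0.0399 with NaHPO4 (adjusted p = 0.0278) and 0.10 ± 0.0405 with BGP (adjusted p = 0.268), and every BGP library lay above every Control library. Dtx4, a Deltex ubiquitin ligase, fell by 0.18 ± 0.0464 on the log2 scale with BGP (adjusted p = 0.0293), from 74.5 ± 1.07 to 65.9 ± 2.90 CPM. In NaHPO4 libraries Dtx4 had 68.8 ± 3.92 CPM, a log2 fold change of -0.11 ± 0.0454 (adjusted p = 0.133). The call of Mib1 was lost without Control replicate 1, Control replicate 3 or NaHPO4 replicate 1, and that of Dtx4 without any of the Control libraries or BGP replicate 1 or 3.

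Of 15 further genes reported as Notch targets in some cell type, 10 were tested, and 0 counts were found for Hes5 while Hes7 had 59, Gata3 24 and Ptcra 3 counts over the 9 libraries. Ccnd1 (467 CPM over all libraries) and the cell-cycle inhibitor Cdkn1a (450 CPM) were the highest by CPM, without correction for gene length. Cdkn1a was 0.11 ± 0.0330 higher on the log2 scale with BGP than with NaHPO4 (adjusted p = 0.0452), a call lost under 10 of 17 alternatives.

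Acta2, which encodes smooth muscle actin, had 451, 455 and 415 CPM in Control, 477, 508 and 493 CPM in BGP and 303, 361 and 323 CPM in NaHPO4 libraries. The 3 conditions did not overlap, with BGP highest and NaHPO4 lowest. Its log2 fold change was 0.16 ± 0.0429 for BGP versus Control (adjusted p = 0.0315), -0.42 ± 0.0431 for NaHPO4 versus Control (adjusted p = 5.7e-09) and 0.58 ± 0.0431 for BGP versus NaHPO4 (adjusted p = 4.29e-12). The rise with BGP was not called by DESeq2 or without Control replicate 3 or BGP replicate 2 or 3, and the calls with NaHPO4 held under all 17 alternatives. Acta2 was thus lower with NaHPO4 than in Control, where Hes1 had overlapping libraries.

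**Figure D4:**
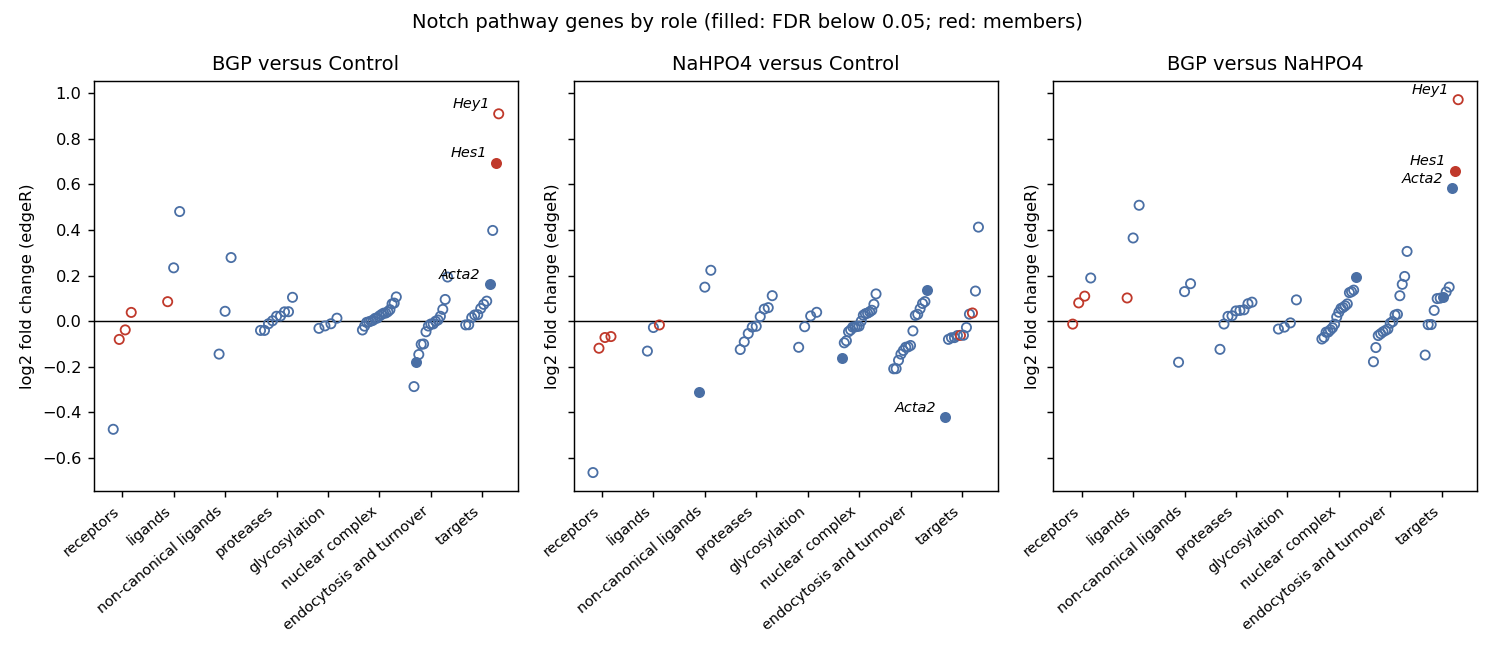
Log2 fold change of every tested gene of the pathway, members included, by role in the 3 comparisons; filled points have an edgeR adjusted p below 0.05. Most genes lie near 0. The named exceptions are Hes1 (0.70 with BGP versus Control, on which it was chosen) and Acta2 (-0.42 with NaHPO4 versus Control, 0.58 between the phosphates). Hey1, Notch4 and Jag2 are among the genes away from 0 without a call.

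Hes1 belongs to a family of repressors, so 12 related genes (other Hes genes, Helt, Bhlhe40, Bhlhe41 and the Id genes) were read as well, of which 7 were tested. Bhlhe40, a repressor of the same helix-loop-helix class, rose with both phosphates, from 57.1 ± 3.38 CPM in Control to 79.8 ± 2.24 CPM in BGP and 69.0 ± 2.05 CPM in NaHPO4. Its log2 fold change was 0.48 ± 0.0464 for BGP versus Control (adjusted p = 1.55e-09), 0.27 ± 0.0462 for NaHPO4 versus Control (adjusted p = 9.15e-05) and 0.21 ± 0.0449 for BGP versus NaHPO4 (adjusted p = 0.00212). The related Bhlhe41 was called only between the phosphates, 0.25 ± 0.0729 higher with BGP (adjusted p = 0.0309), a call lost under 5 of 17 alternatives. Hes6, the other Hes gene with a substantial level, had 30.8, 28.1 and 31.5 CPM in Control, BGP and NaHPO4 and was not called. Id1, Id2, Id3 and Id4, which encode inhibitors of such factors, were not called either. Hes2, Hes5 and Helt had 0 counts and Hes3 had 1.

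Of 14 bone genes on which Notch is known to act, 12 were tested. In BGP versus Control 2 rose (Dmp1 and Tnfrsf11b) and 0 fell by edgeR, DESeq2 or limma, with 0 lower at an unadjusted p below 0.05, while 1.86% of all genes rose. In NaHPO4 versus Control 2 rose (the same Dmp1 and Tnfrsf11b) and 5 fell (Alpl, Bglap, Bglap2, Col1a1 and Sost), against 3.43% and 3.95% of all genes. The fall of Bglap was lost without Control replicate 1 or NaHPO4 replicate 2 or 3, and that of Bglap2 without Control replicate 3. In BGP versus NaHPO4 6 were higher with BGP (Bglap, Bglap2, Col1a1, Dmp1, Sost and Sp7) and 1, Tnfrsf11b, was lower, against 3.33% and 2.05% of all genes. DESeq2 called 7 higher and limma 5, and the calls of Sost, Sp7 and Col1a1 were lost under 4 of 16, 3 of 17 and 1 of 17 alternatives. Tnfrsf11b encodes osteoprotegerin, a decoy receptor that restrains osteoclasts, and rose by 0.14 ± 0.0347 on the log2 scale with BGP (adjusted p = 0.0143, a call lost without Control replicate 2 or BGP replicate 1 or 3) and by 0.33 ± 0.0343 with NaHPO4 (adjusted p = 6.86e-09). Col1a1, the main collagen gene of bone, changed by -0.06 ± 0.0340 with BGP (adjusted p = 0.461) and fell by 0.22 ± 0.0340 with NaHPO4 (adjusted p = 2.47e-05). The osteocalcin gene Bglap2 was 0.24 ± 0.0346 higher with BGP than with NaHPO4 (adjusted p = 8.62e-06). Their changes are given beside those of Hes1 without a test of any link.

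The pattern of Hes1 over the 9 libraries was set against every other tested gene by Pearson's r of log2 CPM, as a description, since the libraries share their conditions and depth. The 10 most alike were Mybbp1a (r = 0.955), Slc35b1 (0.950), Slc38a2 (0.946), Egr2 (0.935), Rnf149 (0.934), Larp1 (0.929), Cnnm4 (0.929), Scml4 (0.928), Rrn3 (0.927) and Slc16a1 (0.927). Most of them differed little in size. Mybbp1a, a nucleolar protein gene, was 0.12 higher on the log2 scale with BGP than in Control and 0.02 higher with NaHPO4. Egr2, an early growth response factor, and Scml4, a Polycomb-related gene, had log2 fold changes of 1.37 and 1.09 for BGP versus Control and of -0.16 and 0.37 for NaHPO4 versus Control.

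Fgf23, the phosphaturic hormone gene of the study, ranked 13 of 13679 in likeness to Hes1 (r = 0.920). Hes1 was chosen for a rise with BGP against both other conditions, which Fgf23 also showed. The choice thus favours a high r with such genes, and no link is read from this rank. Among the members, Hey1 ranked 796 (r = 0.630), Notch2 1013 (0.591), Notch1 3364 (0.301), Jag1 4575 (0.187) and Notch3 10112 (-0.294). No other member was thus among the most alike.

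**Figure D5:**
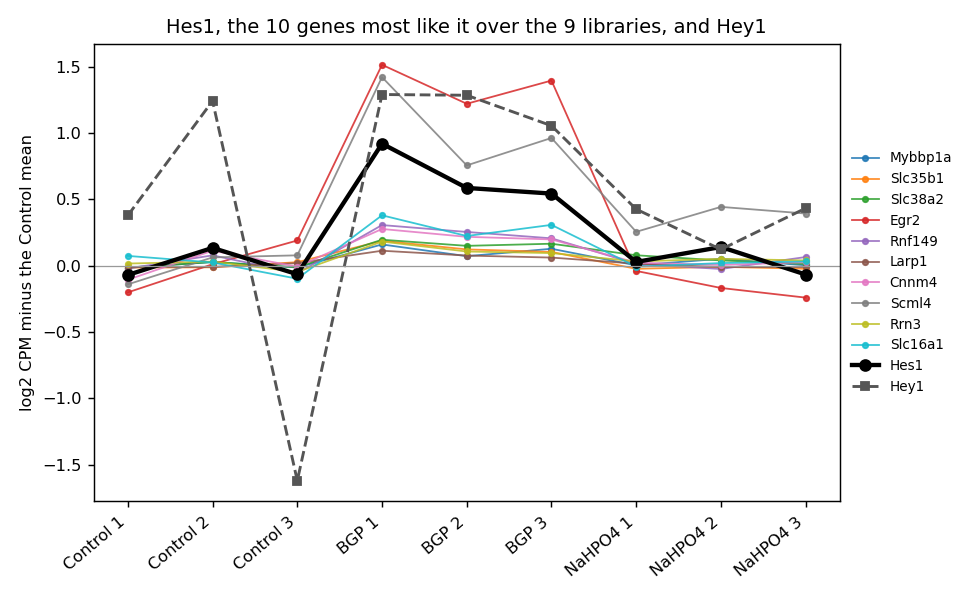
Level of Hes1, Hey1 and the 10 genes most like Hes1 in each library, as log2 CPM minus the mean of the gene's 3 Control libraries; lines only join the points of a gene. Hes1 and the 10 genes like it are each highest in BGP libraries, where Egr2 and Scml4 exceed Hes1 and the other 8 stay below it, while Hey1 in Control replicate 2 lies within its BGP range and drops in Control replicate 3 (0.0787 CPM).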

How the data were processed

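RNA sequencing of differentiated MC3T3-E1 cells was taken from 9 libraries, 3 each of Control, BGP and NaHPO4, grouped by their labels. The authors mapped paired reads of stranded poly(A) libraries to GRCm39 (Ensembl annotation) in the AIR software and deposited raw counts per gene. The aligner, the counting program and the use of strand are not given in the sources used here. The authors also deposited TMM-scaled values, a signal equal to the counts times 1 factor per library, which served for an alternative and for gene symbols. Both tables hold 55416 genes.

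Counts were filtered with filterByExpr (count minimum 10) in edgeR 4.0.16, leaving 13679 genes, scaled by TMM, and fitted with glmQLFit on all 9 libraries with a coefficient per condition. Each of the 3 comparisons was tested by glmQLFTest, with p-values adjusted over all tested genes by the Benjamini-Hochberg method. Errors of levels are SDs over 3 libraries, and those of log2 fold changes are standard errors from the F statistic, with 95% intervals. CPM per kilobase used the union of exons in GENCODE M39 (GRCm39), which held 13631 of the tested gene IDs. Promoters were read from the GRCm39 genome. The promoter of Hey1 is not reported here. Likeness to Hes1 was computed on log2 CPM (prior count 2). R 4.3.3, limma 3.58.1, DESeq2 1.42.0, Python 3.11.15, pandas 2.3.3 and matplotlib 3.10.9 were used, and the fit was tested on simulated data.

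Total counts were 21390839 to 28234404 per library. Floors of 3 counts cover counting error only. Replicates differed by more than sampling noise (chi-square per degree of freedom 2.64 to 4.90), so each was kept as a sample.

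The members and all lists were chosen with earlier results of these data known. Named are the 9 members, genes of the wider Notch list called in any comparison and the 2 with the highest mean CPM per role. The 10 genes most like Hes1 are named too. So are called genes of the HES-like and bone lists. The rule allowed at most 6 per list by the smallest p, but every called gene of the bone list is named. Genes named outside this rule, such as Rbpj, Maml1, Hes6 and the genes at or near 0 counts, were added after their values were seen. Alternatives were a fit of the 2 groups compared alone, DESeq2, limma on log2(value + 1) of the TMM table, other scalings (DESeq2 size factors, total counts), other filters (none, or at least 10 counts in every library), the replicate number as a block, each library left out, a fold limit and an FDR of 0.01. The other assays of the study were not analysed here.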

Additional observations from a re-analysis of the deposited data

How the results depend on the processing

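The 18 log2 fold changes of the 6 tested members gave 303 values under the alternatives. Of these, 289 kept their direction and their side of the threshold, with the missing adjusted p of Hey1 by DESeq2 counted as not called. A further 1 passed the threshold (Notch2 for BGP versus NaHPO4 without NaHPO4 replicate 1, at 0.13). The remaining 13 changed sign, all in differences that were not called. The log2 fold change of Hes1, which was chosen on these contrasts, ranged from 0.57 to 0.77 for BGP versus Control and from 0.53 to 0.73 for BGP versus NaHPO4, as a description. The causes of the changes below were not tested.

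For NaHPO4 versus Control, the sign turned for Hey1 by limma on the TMM table (0.45) and for Jag1 with total counts in place of TMM (0.00857). For each difference that turned sign in at least 1 alternative, the lowest and highest values over all alternatives follow. In NaHPO4 versus Control they were -0.0204 and 0.11 for Hes1, -0.62 and 0.82 for Hey1 and -0.11 and 0.14 for Jag1. In BGP versus Control they were -0.0708 and 0.00582 for Notch1. In BGP versus NaHPO4 they were -0.0532 and 0.19 for Jag1 and -0.0597 and 0.0159 for Notch3. The count of called members for BGP versus NaHPO4 ranged from 1 to 2. Hey1 could not be fitted where at least 10 counts were asked of every library, and its adjusted p by DESeq2 is not available.

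Of the wider Notch list, 2 genes called in BGP versus Control became 1 by DESeq2, 0 with the fold limit of 0.5, 0 at an FDR below 0.01 and from 0 to 2 with each library left out. The 4 in NaHPO4 versus Control became 0 with the fold limit, 1 at an FDR below 0.01 and from 2 to 4 with each library left out. The 3 in BGP versus NaHPO4 became 1 with the fold limit and from 2 to 5 with each library left out.

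With the replicate number as a replicate block, the log2 fold change of Hes1 was 0.69, 0.03 and 0.66 in BGP versus Control, NaHPO4 versus Control and BGP versus NaHPO4, and the block changed no call of a member. It left 2, 4 and 2 genes of the wider list called. Libraries of the same number deviated together little (correlations -0.00920 to 0.0426, mean 0.0127, against a mean of -0.00633 for different numbers). Yet 7 of 9 libraries correlated best with their own number. Whether the numbers mark pairs was thus not settled, and the main fit held no block. Low counts, at most 25 in a library, limit what can be read from Hey1, Heyl, Nrarp and Hey2. Hey1 also spread widely between the Control libraries.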
